A study of Bos taurus with 2 samples.

Results

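The SLC25 carriers of fetal bovine muscle were compared between a low nutrition (LN) pool and a high nutrition (HN) pool. Members were all genes with a bovine symbol starting with SLC25A for which the accession of at least 1 probe on the array could be matched, with SLC25A20, the carnitine and acylcarnitine carrier, left out. This gave 36 carriers with 73 probes, among 12603 genes with a symbol and a probe. The rule used names only and no measured value. The HN array held the pooled total RNA of the longissimus thoracis (LT) muscle of 4 Japanese Black fetuses whose dams received 120% of the nutritional requirement, and the LN array that of 4 fetuses whose dams received 60%. The HN pool was made of the fetuses with the highest body weight (BW) of their group and the LN pool of those with the lowest BW, so that diet and selection by BW cannot be told apart. In both groups the diets covered gestation and the time before it, the dams had been inseminated with male-sorted semen of a single sire, and the muscle was taken at 8.5 months of gestation (day 260 ± 8.3). A group fed 100% of the requirement was not analysed here. Each pool was hybridized to 1 array. There was thus no replicate check, no test between the pools and no p-value, and each difference below is a comparison of these 2 arrays only.

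The SLC25 family forms the largest group of transport proteins of the inner mitochondrial membrane, which is otherwise closed to charged metabolites. Its members exchange nucleotides, phosphate, amino acids, carboxylates and cofactors between the cytosol and the matrix, and the mitochondrial carriers are encoded in the nucleus, made in the cytosol and imported into the membrane. In skeletal muscle the family is best known for ADP/ATP exchange, which delivers the ATP of oxidative phosphorylation to the contractile apparatus, and for the malate-aspartate shuttle, which brings reducing equivalents of glycolysis into the matrix. UCP1, UCP2 and UCP3 belong to the same family by sequence but carry other symbols and were not members.

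Signals are given on the log2 scale after quantile normalization, and a difference is the log2 signal of LN minus that of HN, so that a positive value means a higher signal in LN. A log2 difference of 0.32, at which the signals stand in a ratio of 5 to 4, was taken as the fold threshold. A probe was called detected when its signal stood well above background, by the flag of the scanner software, on 1 array or both. On the HN array 74.5% of the spots were well above background, and on the LN array 70.9%, with median intensities of 49.1 and 48.4 before normalization and no saturated spot on either array. The 8 muscle markers with a probe, such as ACTA1, CKM and TNNC2, all had log2 signals between 12.75 and 18.35 on both arrays, so that defining markers of the labelled tissue were present. The 42 probes printed in several spots gave an estimate of measurement error, beside the error that the software gave for each spot. The log2 LN/HN of a single spot had an SD of 0.085, and thus a 95% range of ± 0.17. This error covers the array measurement, and neither it nor any other value here covers the spread between fetuses.

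Of the 36 carriers, 32 had a value, and most of them differed little between the pools. The median difference was -0.03, against -0.0021 over the 10637 genes with a symbol and a value. Above 0 were 14 carriers (43.8%, against 49.5% of all genes) and below 0 were 18. Of the 32 carriers, 27 lay within the fold threshold. Beyond the 95% range of a single spot lay 13 (8 higher in LN and 5 lower), and 11 were closer to 0 than the spot SD. The shares of all genes for these counts were not computed, so the counts do not set the carriers apart. Probes of all genes with mean log2 signals of 8 to 9 had percentiles 5 and 95 of -0.33 and 0.31, which is wider than that range. Past the threshold, 4 carriers were higher in LN: SLC25A42, SLC25A27, SLC25A24 and SLC25A29. They made up 12.5% of the carriers with a value, where 7.80% of all genes were past this fold in that direction. Past the threshold lower in LN was SLC25A34 alone, or 3.13% of the carriers against 8.01% of all genes. No carrier value passed 2-fold, a difference that 0.959% of all genes reached in either direction. SLC25A35 was counted as within the threshold, although its value was only a lower bound (HN at least 1.20-fold higher). In pooled tissue, fewer cells of a type and less RNA per cell cannot be told apart.

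**Figure D1:**
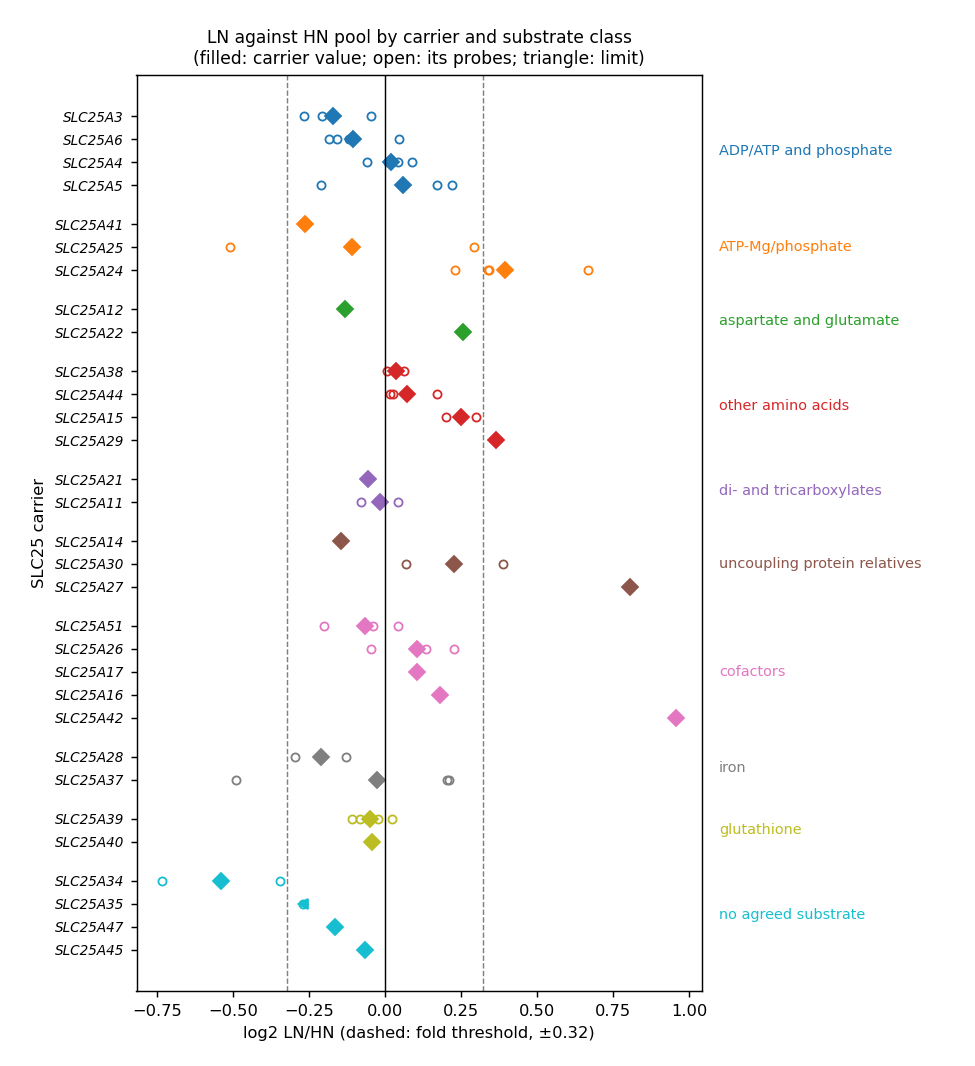
Log2 LN/HN (x axis) of 31 carriers with a value (y axis), ordered by substrate class. Filled diamonds are carrier values, open circles are single probes of carriers with several probes, the triangle marks a value that is a lower limit of the size, and dashed lines mark the fold threshold. Most carriers lie between the dashed lines, SLC25A42 (0.96) and SLC25A27 (0.81) lie farthest to the right, and SLC25A34 (-0.54) lies farthest to the left.

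Carriers of ADP/ATP and phosphate serve oxidative phosphorylation directly, and none of them passed the threshold. SLC25A4, the ADP/ATP carrier typical of heart and skeletal muscle, had a log2 signal of 15.76 in HN and 15.78 in LN over 4 probes. The difference was 0.02, and the probes ranged from -0.06 to 0.09. SLC25A3, the phosphate carrier, had 12.99 in HN and 12.81 in LN. Its 3 probes were all lower in LN, by -0.27, -0.21 and -0.05, and the mean difference of -0.17 was just beyond the 95% range of a spot. The remaining ADP/ATP carriers differed less. SLC25A6, which is widely expressed, had a difference of -0.10 over 4 probes from -0.18 to 0.04, and its brightest probe gave the 0.04. SLC25A5, typical of dividing cells, had 0.06 with probes from -0.21 to 0.22. SLC25A31, the ADP/ATP carrier of germ cells, was well above background in HN only (2.67 in HN and 2.32 in LN), and no fold could be given. The class median was -0.04 over 4 carriers, 2 above and 2 below 0.

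Carriers of ATP-Mg and phosphate adjust the size of the adenine nucleotide pool in the matrix, and of these SLC25A24 passed the threshold and SLC25A25 and SLC25A41 did not. SLC25A24, which is activated by calcium, had a log2 signal of 6.40 in HN and 6.80 in LN. This made LN 1.31-fold higher (log2 0.40), and all 4 probes were higher in LN, with differences of 0.23, 0.34, 0.34 and 0.67. Its brightest probe gave the largest of these (8.75 in HN and 9.42 in LN). SLC25A25, a calcium-dependent relative, had 7.64 in HN and 7.53 in LN (-0.11), but its 2 probes disagreed: one went from 10.47 in HN to 9.96 in LN (-0.51) and the other from 4.81 to 5.11 (0.29). SLC25A41, which lacks the calcium-binding part, had 5.04 in HN and 4.78 in LN, a difference of -0.26 on its only probe. The class median was -0.11, with 1 of its 3 members above 0 and 2 below.

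Carriers of amino acids had values above 0, except SLC25A12. SLC25A29, which transports basic amino acids such as lysine and arginine, had 7.66 in HN and 8.03 in LN on 1 probe. LN was 1.29-fold higher (log2 0.36). SLC25A15, the ornithine carrier of the urea cycle, had 6.66 in HN and 6.91 in LN, and both of its probes were higher in LN (0.20 and 0.30). SLC25A44, which takes branched-chain amino acids into the matrix, had a difference of 0.07 over 3 probes, and SLC25A38, the glycine carrier needed for heme synthesis, had 0.04 over 2 probes. These were all within the threshold except SLC25A29. The 4 carriers of this class with a value were all above 0, with a median of 0.16, and SLC25A2, a further ornithine carrier, was not detected on either array. Among the carriers of aspartate and glutamate, SLC25A22, which brings in glutamate with a proton, had 6.43 in HN and 6.68 in LN (0.26). SLC25A12, the calcium-regulated aspartate/glutamate exchanger of muscle and brain, had 10.33 in HN and 10.20 in LN (-0.13). Both were measured by 1 probe, and the difference of SLC25A12 was within the 95% range of a spot.

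Carriers of di- and tricarboxylates were represented by SLC25A11 and SLC25A21, and both lay close to 0. SLC25A11, which exchanges oxoglutarate for malate and is the partner of SLC25A12 in the malate-aspartate shuttle, had 12.81 in HN and 12.79 in LN (-0.02). SLC25A21, the oxoadipate carrier of lysine breakdown, had a difference of -0.05. The citrate carrier SLC25A1 and the dicarboxylate carrier SLC25A10 had no matched probe, so that the export of citrate and succinate is not covered by these values. The same holds for the second aspartate/glutamate exchanger SLC25A13 and for both pyrimidine nucleotide carriers, SLC25A33 and SLC25A36.

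Among the relatives of the uncoupling proteins, SLC25A27 passed the threshold, whereas SLC25A30 and SLC25A14 did not. SLC25A27, known mainly from brain, had 2.94 in HN and 3.75 in LN on its only probe, which made LN 1.75-fold higher (log2 0.81). Its signal was dim, and the software gave errors of 18.3% of the signal in HN and 15.2% in LN, against medians of 10.3% and 10.5% over all spots. SLC25A30, a relative found in kidney and other tissues, had 6.96 in HN and 7.19 in LN, and its probes differed by 0.07 and 0.39. SLC25A14 had 4.22 in HN and 4.07 in LN (-0.14), within the 95% range of a spot.

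Cofactor carriers supply enzymes of the matrix with coenzyme A, NAD+ and S-adenosylmethionine, among others. SLC25A42, which imports coenzyme A, had 2.70 in HN and 3.66 in LN on its only probe. LN was 1.94-fold higher (log2 0.96). This probe was dim as well, with errors of 19.0% in HN and 15.4% in LN. The other members described were within the threshold. SLC25A16, also linked to coenzyme A, had 8.44 in HN and 8.62 in LN (0.18). SLC25A26, the S-adenosylmethionine carrier, had 0.11, and SLC25A17, a carrier of cofactors that resides in peroxisomes rather than mitochondria, had 0.11. SLC25A51, which brings NAD+ into the matrix, had -0.07. The class thus held 4 carriers above 0 and 2 below, with a median of 0.11, and SLC25A26 turned to -0.05 when its brightest probe was used alone.

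Iron and glutathione carriers were all slightly below 0, but under other processing SLC25A37 turned above 0 in 3 of 11 alternatives, SLC25A39 in 1 and SLC25A40 in 2. SLC25A28 and SLC25A37, the mitoferrins that bring iron into the matrix, had differences of -0.21 and -0.03, the latter from 7.81 in HN to 7.79 in LN. Both probes of SLC25A28 were lower in LN (-0.29 and -0.13). For SLC25A37, the form of erythroid cells, the value close to 0 averaged probes that disagreed: the brightest went from 11.79 in HN to 12 in LN (0.21), another gave 0.20, and the remaining one went from 6.56 to 6.08 (-0.49). The gene table also lists LOC523756 with SLC25A37 as a synonym. It was not a member, and its 2 probes gave 0.18 and 0.41. SLC25A39, which brings glutathione into the matrix, had 7.57 in HN and 7.52 in LN (-0.05 over 5 probes), and SLC25A40, a carrier of the same kind, had a difference of -0.04 on 1 probe.

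Carriers without an agreed substrate were all below 0, with a median of -0.22 over 4 carriers, except that SLC25A45 turned to 0.03 with the normexp background correction and to 0.04 without the filter on dim probes. SLC25A34, which resembles the oxaloacetate carrier of yeast, had 10.20 in HN and 9.66 in LN, so that HN was 1.45-fold higher (log2 -0.54). Both of its probes were lower in LN: the brighter went from 12.55 to 11.81 (-0.73) and the other from 7.86 to 7.51 (-0.35). Its close relative SLC25A35 was well above background in HN only, at 3.09 against a measured 1.24 in LN, and with LN set at the detection limit of its array HN was at least 1.20-fold higher. SLC25A47, known as a liver carrier, had 8.32 in HN and 8.16 in LN (-0.16), and SLC25A45 had 5.93 and 5.86 (-0.07). SLC25A48 and SLC25A53 were not detected on either array. SLC25A47 lies next to SLC25A29 in the bovine gene order, with 0 protein-coding genes between them, and the differences of these neighbours had opposite signs (-0.16 and 0.36).

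Probes of the same carrier often disagreed in sign. Of the 17 carriers with several probes, 8 had all probes of one sign: SLC25A15, SLC25A24, SLC25A30, SLC25A38 and SLC25A44 were above 0 on every probe, and SLC25A3, SLC25A28 and SLC25A34 below 0. The other 9 had probes of both signs. Over all genes with a symbol and several probes, 58.1% of 6323 had probes of one sign. At the level of probes, 63 of the 73 were detected on both arrays and had a median difference of 0.01. Of these, 7 were past the threshold higher in LN and 4 past it lower, where 7.96% and 7.91% of all probes with a symbol detected on both arrays were. Among the carriers past the threshold, the sign thus held over several probes for SLC25A24 and SLC25A34, whereas SLC25A27, SLC25A29 and SLC25A42 rested on 1 probe each.

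How far a difference stood out depended on the signal. Under a mean log2 signal of 4, 25.7% of all genes were past the threshold higher in LN and 21.3% lower, whereas at 4 or more the shares were 5.92% and 6.61%. Of the 4 carriers under 4, SLC25A27 and SLC25A42 were past the threshold. The HN signal of SLC25A42 (2.70) was below the lowest signal called well above background on the LN array (2.82). Among the 23 carriers between 4 and 10, 2 were higher (SLC25A24 and SLC25A29) and 1 was lower (SLC25A34). The 5 carriers at 10 or more, which were SLC25A3, SLC25A4, SLC25A6, SLC25A11 and SLC25A12, ranged from -0.17 to 0.02 only. When each probe detected on both arrays was set against all probes of like signal, 54 of the 63 carrier probes lay between the percentiles 5 and 95. Above percentile 95 lay 1 probe each of SLC25A24, SLC25A27, SLC25A29, SLC25A30 and SLC25A42, and below percentile 5 lay 1 probe each of SLC25A3, SLC25A25, SLC25A34 and SLC25A37. SLC25A27, at 0.81 against a bound of 0.78, and SLC25A3, at -0.27 against -0.26, were barely outside, and the brighter probe of SLC25A34, at -0.73 against -0.26, was the farthest from its bound.

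**Figure D2:**
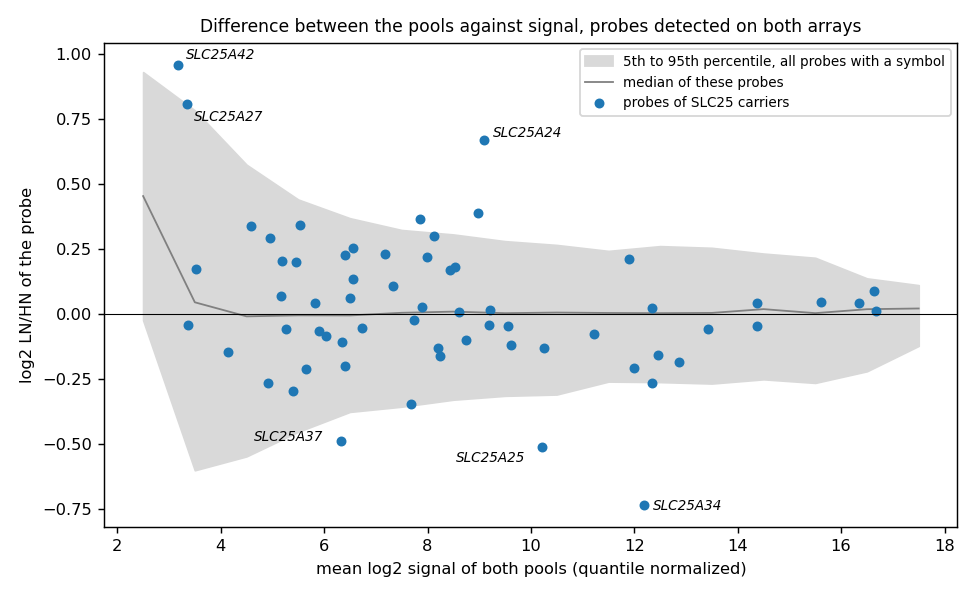
Log2 LN/HN of each probe (y axis) against the mean log2 signal of both pools (x axis) for the 63 carrier probes detected on both arrays (points). The grey band spans the percentiles 5 to 95 of all probes with a symbol in steps of 1 log2 unit, and the grey line is their median. The band widens at low signal, so that SLC25A42 and SLC25A27 lie near its edge, while a probe of SLC25A24 and a probe of SLC25A34 lie well outside it.

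Genes that act with the carriers were examined as lists. The import machinery for carriers (the TOM receptors and channel, the small TIM chaperones and the TIM22 complex) had values for 13 of 13 genes, of which 10 were above 0 (49.5% of all genes were), with a median of 0.10 and none past the threshold. TIMM10, a chaperone of the intermembrane space, had 11.14 in HN and 11.40 in LN (0.25), and TIMM22, the channel that inserts carriers into the membrane, had 10.49 and 10.75 (0.25). TOMM70, the receptor that binds carriers at the outer membrane, had 11.32 and 11.19 (-0.13). The enzymes of the malate-aspartate shuttle GOT1, GOT2, MDH1 and MDH2 ranged from -0.08 to 0.04. Genes that follow mitochondrial content, such as the citrate synthase gene CS and the mitochondrial DNA factor TFAM, ranged from -0.15 to 0.23 over 11 of 12 genes with a median of 0.04. Neither list held a gene past the threshold.

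Among the other transport proteins of mitochondria, 18 of 20 had a value, with a median of 0.01. Past the threshold were SFXN2, a sideroflexin, with 6.87 in HN and 7.43 in LN (0.56), and MCU, the pore of the calcium uniporter, with 9.54 in HN and 9.92 in LN (0.38). Both rested on 1 probe with a fold and were higher in LN, where 7.80% of all genes were past the threshold. SFXN5, another sideroflexin, lay just inside the threshold on the lower side (-0.32). Of 17 enzymes that make or use what the amino acid, iron and cofactor carriers transport, 14 had a value, with a median of 0.10. MAT2A, which makes S-adenosylmethionine, had 11.01 in HN and 11.44 in LN (0.43), and both of its probes were higher in LN. GSS, which makes glutathione, had 6.87 in HN and 7.20 in LN (0.33) on 1 probe with a fold, barely past the threshold. The carriers of these products, SLC25A26 (0.11), SLC25A39 (-0.05) and SLC25A40 (-0.04), did not pass the threshold.

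**Figure D3:**
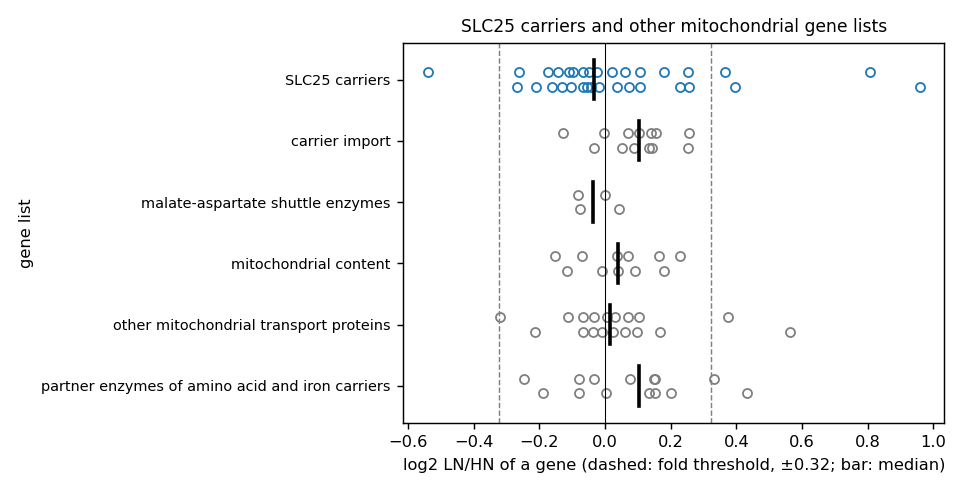
Log2 LN/HN (x axis) of single genes (circles) of the SLC25 carriers and of 5 lists of genes that act with them (y axis), with the median of each list as a bar and dashed lines at the fold threshold. The carriers range from -0.54 to 0.96, with both values above 0.40 from SLC25A27 and SLC25A42, whose mean log2 signals were under 4, and all medians lie between -0.04 and 0.10.

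Markers of other cell types in the muscle were read beside these values. Summed over the list, neutrophil markers had a log2 signal of 10.8 in HN and 11.6 in LN. Of the 11 with a probe, 8 were past the threshold higher in LN and CXCR2 was past it lower, with a median of 0.68, beside 7.80% higher and 8.01% lower over all genes. Endothelial markers summed to 13.1 in HN and 12.8 in LN, with 8 of 9 below 0, EGFL7 and CLDN5 past the threshold lower (8.01% over all genes) and a median of -0.23. Erythroid markers, which bear on the heme and iron carriers SLC25A37 and SLC25A38, summed to 14.07 in both pools. HBA was at 14.01 and 14.02, SLC4A1, EPB42, KLF1, HEMGN and RHAG had no value, and TFRC, the transferrin receptor, which muscle also expresses, was higher (0.80, with 5.33 in HN and 6.12 in LN).

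The remaining marker lists held few genes past the threshold. Slow fibre markers, which bear on mitochondrial content, had a median of -0.12 over 7 genes and none past the threshold. Muscle markers had a median of -0.04 over 8 genes, with MYH8, the perinatal myosin heavy chain, past the threshold higher (0.35). Adipocyte markers had a median of -0.06 over the 5 genes with a value, with FABP4 higher (0.39) and LEP and UCP1 without a value, and their summed signal was 9.10 in HN and 9.35 in LN. Markers of neurons and Schwann cells had a median of -0.03 over 8 genes, none past the threshold, with NEFL and NEFM without a value. What part these cell types had in the values of the carriers was not tested.

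The 5 carriers past the threshold were followed over 11 other ways of processing the arrays. SLC25A34 was past the threshold lower in all of them, from -0.73 to -0.50. SLC25A24, SLC25A27, SLC25A29 and SLC25A42 were past it higher in all but the normexp background correction, which gave 0.24, 0.09, 0.26 and 0.08. This correction adds an offset of 50 to the intensities and narrows differences of dim probes, and under it 1.78% of all genes were past the threshold higher and 1.85% lower. SLC25A42 ranged up to 1.14 with the authors' normalized values, where it passed 2-fold. Some alternatives could not move these values. The settings for detection, dim probes and outlier spots left all 5 unchanged, since their probes were detected on both arrays and none was flagged. The choice among probes could not move SLC25A27, SLC25A29 and SLC25A42, which had 1 probe each.

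**Figure D4:**
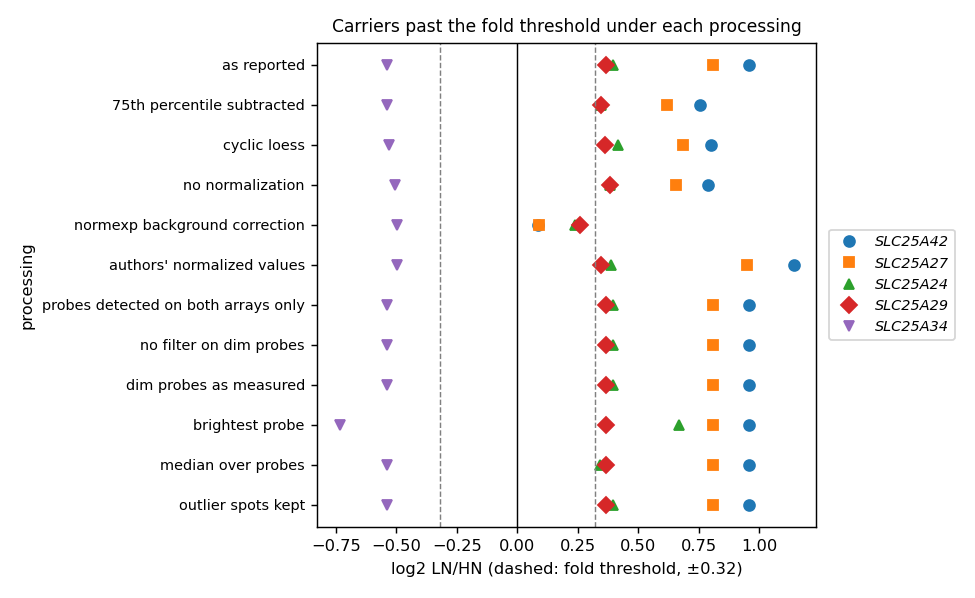
Log2 LN/HN (x axis) of the 5 carriers past the threshold under the reported processing and 11 alternatives (y axis), with dashed lines at the fold threshold. SLC25A34 stays left of the lower line throughout, and the other carriers lie right of the upper line except with the normexp background correction, where SLC25A27 (0.09) and SLC25A42 (0.08) come close to 0.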

How the data were processed

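The authors pooled total RNA of LT muscle from 4 fetuses per group, labelled it with Cy3 and hybridized each pool to a one-color Agilent array of the same slide. Spot intensities were deposited as Feature Extraction 11.0.1.1 wrote them, background-subtracted and detrended but not normalized between arrays, with error estimates and flags per spot. The authors also deposited log2 values for 30027 probes, normalized by the quantile method, and these were used as an alternative.

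Log2 intensities of 43803 non-control spots were quantile normalized with limma 3.58.1 in R 4.3.3, following the quantile method of the study. Spots with an outlier flag were removed (13 spots, 0 of carriers), and spots of a probe were averaged. Probes not well above background on either array were left out. Where a probe was well above background on 1 array, its other side was raised to the lowest log2 signal so marked on that array (2.27 in HN and 2.82 in LN) unless its own value was higher, and no fold was given if the bright side did not exceed it. Genes were given the mean of all their detected probes for which a fold could be formed. Where the dim side lay at the limit, the fold is a lower bound.

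Accessions of 26742 of the 43652 probes were matched to symbols through the RefSeq gene table of ARS-UCD2.0, which was used for names and gene order only, since the array design refers to an older build. Of its 45 SLC25A symbols without SLC25A20, 9 had no matched probe (SLC25A1, SLC25A10, SLC25A13, SLC25A23, SLC25A32, SLC25A33, SLC25A36, SLC25A43 and SLC25A46). No probe, promoter or protein sequence was used here, so the planned comparison of proteins was not made. Normexp was run on median spot signals, as the mean signals it was planned for were not used here. Tables were handled with Python 3.11.15, numpy 2.4.6 and pandas 2.3.3, and figures drawn with matplotlib 3.10.9. The steps were tested on simulated data.

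The carriers, the 11 substrate classes and the lists (5 of pathways and 7 of cell types, written from general knowledge) were chosen with earlier results of these data known. Carriers with a detected probe were named, apart from values of some genes that are not reported here, with both signals for those past the fold threshold and the brightest reported member of each class, and of the lists mainly the genes past the fold threshold. Carriers, probes and genes are not replicates, and the number of arrays limits the precision.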

Additional observations from a re-analysis of the deposited data

How the results depend on the processing

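No paired analysis was possible because each group had 1 array. Of 154 recomputed medians and counts, 131 stayed within the spot SD of 0.085 (medians) or within 1.5 times (counts) and 23 moved, and none of the 5 carriers past the fold threshold turned its sign. The median of all carriers ranged from -0.09 (75th percentile subtracted) to 0.0093 (brightest probe), and was also above 0 with normexp and without the filter on dim probes. The 75th percentile moved the split of all genes past the fold threshold to 5.42% higher and 12.1% lower, and the median of all genes to -0.04. Carriers past the fold threshold higher numbered 0 with normexp instead of 4. They numbered 6 without the filter on dim probes, with SLC25A2 and SLC25A21 added, and 5 with the brightest probe, with SLC25A30 added. Those lower numbered 3 instead of 1 with the 75th percentile, without normalization, without the filter on dim probes and with dim probes as measured, and 2 with cyclic loess and with the brightest probe. SLC25A35 joined in all of these but the last, SLC25A41 with the 75th percentile and without normalization, SLC25A31 without the filter and with dim probes as measured, and SLC25A25 with the brightest probe. Past 2-fold was 1 carrier instead of 0 with the authors' values (SLC25A42), without the filter and with dim probes as measured (SLC25A35, at -1.85 in both). Class medians that moved were -0.26 for ATP-Mg/phosphate, 0.041 for iron and 0.39 for the uncoupling protein relatives with the brightest probe. With normexp they were -0.028 for aspartate and glutamate, -0.024 for iron and 0.089 for the uncoupling protein relatives. Without the filter they were 0.19 for di- and tricarboxylates, where a second probe of SLC25A21 that was not well above background entered, and 0.25 for the other amino acids, where SLC25A2 entered. With the 75th percentile they were -0.15 for glutathione and -0.33 for carriers without an agreed substrate. The latter had -0.34 with cyclic loess and -0.35 with dim probes as measured. The median over probes gave -0.0046 for iron. The causes of the other shifts were not tested. SLC25A37 became 0.21 with the brightest probe and 0.20 with the median over probes. Signal over background left SLC25A2, SLC25A31, SLC25A48 and SLC25A53 without a value and limits those of SLC25A27, SLC25A35, SLC25A40 and SLC25A42, which had mean log2 signals under 4.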
